A study of Saccharomyces cerevisiae with 56 samples.

Results

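The 7 YRF1 genes examined here were YRF1-1 to YRF1-7, taken as a gene family by name, out of 5197 genes named on a yeast expression array of 6245 probes. All 7 had a probe of their own, and an eighth family gene, YRF1-8, was kept among the related open reading frames. The levels were read in Saccharomyces cerevisiae from a cross between 59A, a haploid spore derivative of the wine yeast EC1118, and S288C, the laboratory reference strain. From each parent 2 RNA extracts were read on 3 technical arrays apiece, and each of the 44 segregants, haploid spores of the cross named by an ascus number and a letter, gave 1 array. All strains fermented the same synthetic grape must and were sampled in stationary phase at the same amount of CO2 released, with no other treatment, so the genotype is the only difference the labels give. The 56 arrays lay on 7 slides of 8. Array medians lay between 8.243 and 8.276 on the log2 scale, since the values had been quantile normalised together. A segregant has no replicate, and its ascus mates share parents and often a slide.

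YRF1 stands for Y'-element ATP-dependent helicase. The Y' element is a long repeat found in one or more copies at the ends of many yeast chromosomes, directly inside the telomere, and the YRF1 open reading frames lie within it. The element is known for amplifying by recombination when telomerase is missing, a state in which YRF1 transcripts are strongly induced, and strains of the species differ in how many copies they hold. Subtelomeric chromatin bound by Rap1, the Sir proteins and Ku is known to repress genes placed near the ends.

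In the reference annotation, used for names and gene order alone, YRF1-1, YRF1-3 and YRF1-5 were the outermost genes of the right ends of chromosomes IV, VII and XII, and YRF1-6 and YRF1-7 those of the left ends of chromosomes XIV and XVI. YRF1-2 and YRF1-4 were the second genes from the right ends of chromosomes V and XII. The members are near copies, so transcripts of one copy can bind the probes of the others, and each value is a signal of the family read by one probe. In the platform's annotation YRF1-1, YRF1-4 and YRF1-5 carried one common sequence accession, while YRF1-2, YRF1-3, YRF1-6 and YRF1-7 carried none. That accession was attached to 14 probes, namely these 3 members and 11 other Y' open reading frames, and to no other feature. DNA copies were not measured here, so the number of Y' copies and the RNA made per copy cannot be told apart.

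All members were lower in 59A than in S288C, by 4.12-fold to 5.15-fold. YRF1-5 read 10.77, 10.41 and 10.93 on the arrays of 59A extract 1 and 11.14, 11.17 and 10.78 on those of extract 2, as log2 intensity. In S288C it read 13.08, 13.18 and 13.21 for extract 1 and 13.35, 13.13 and 13.42 for extract 2. The highest 59A array thus lay well below the lowest S288C array. The log2 difference of 59A minus S288C was -2.36 (SE 0.13, n = 2 extracts each, limma adjusted p = 0.000101). YRF1-6 read 10.24, 10.19 and 10.26 and then 10.66, 10.73 and 10.19 in the 2 extracts of 59A, against 12.43, 12.23 and 12.46 and then 12.76, 11.78 and 12.86 in S288C. Its single arrays of 1 extract scattered most, with an SD of 0.34 against 0.06 to 0.19 for the other members, and its groups still did not overlap. The difference of YRF1-6 was -2.04 (SE 0.12, limma adjusted p = 0.000115).

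YRF1-1 read 10.63, 10.64 and 10.61 in 59A extract 1 and 10.98 and 10.90 in extract 2, where the remaining array has no value. In S288C it read 12.89, 12.99 and 13.08 for extract 1 and 13.12, 13.21 and 13.23 for extract 2. Its difference of -2.30 (SE 0.13, limma adjusted p = 0.000113, 4.92-fold) therefore comes from the fit that allows a missing value and averages the 2 arrays left. For YRF1-2 the arrays ran from 10.16 to 10.68 in 59A and from 12.23 to 12.77 in S288C, a 4.15-fold difference. YRF1-3 ran from 10.16 to 10.86 and from 12.54 to 12.99, a 4.68-fold difference, and YRF1-4 from 10.50 to 11.13 and from 12.98 to 13.24, a 4.82-fold difference. YRF1-7 ran from 10.14 to 10.95 and from 12.48 to 12.94, a 4.37-fold difference. No member's parental arrays overlapped.

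In the fit of 5969 features with a value on all parental arrays, 6 of the 6 members tested were called lower, where a call needed an adjusted p below 0.01 and a log2 difference larger than 0.7. Over all features 12.4% were called lower in 59A and 12.8% higher. With missing values allowed, 12.4% of 6245 features were lower and YRF1-1 was among them. Extract 2 lay above extract 1 for every member in both parents, by 0.30 to 0.50 in 59A and by 0.09 to 0.35 in S288C. The replicates were labelled as biological, and with 2 extracts a parent the p-values rest on a spread shared across features. Slides 1, 2 and 5 held arrays of both parents, and on each of them every member with values was lower in 59A, by -1.90 to -2.78.

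**Figure D1:**
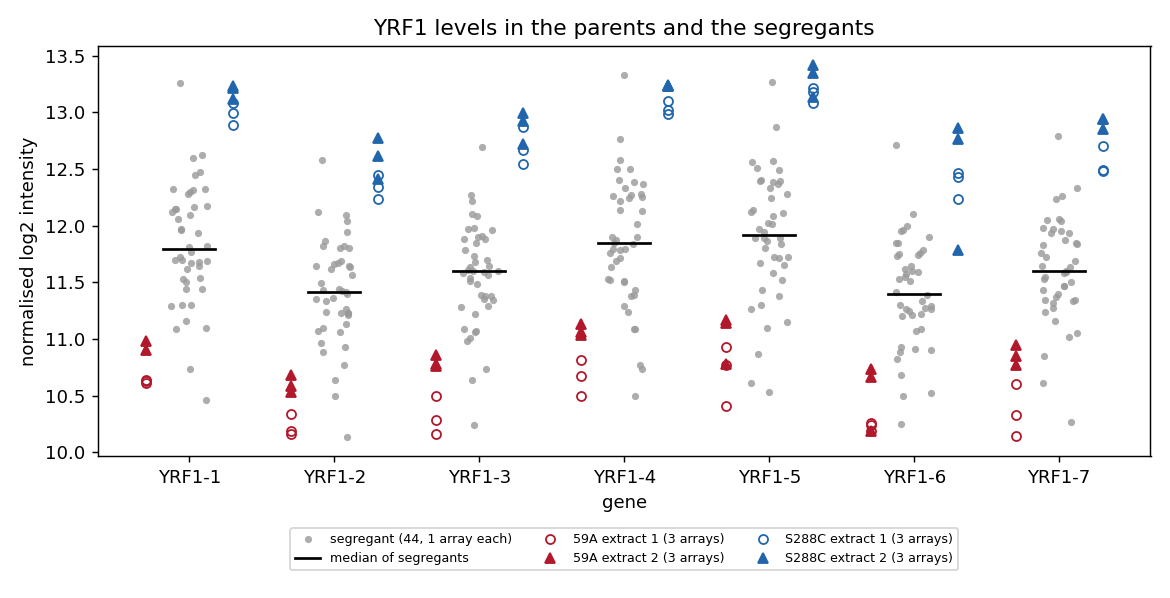
Normalised log2 intensity (vertical axis) of each YRF1 gene (horizontal axis) on single arrays: 59A in red, S288C in blue, with open circles for extract 1 and filled triangles for extract 2, the 44 segregants in grey and their median as a black line. For each gene the arrays of the parents do not overlap, and the segregants spread over the space between them without falling into separate ranges.

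Among the segregants the family was graded. YRF1-1 ran from 10.46 in segregant 20a through a median of 11.79 to 13.26 in 29c, and YRF1-4 from 10.50 through 11.84 to 13.33. YRF1-5 ran from 10.53 through 11.92 to 13.27, YRF1-2 from 10.13 through 11.41 to 12.58, and YRF1-3 from 10.24 through 11.59 to 12.69. YRF1-6 ran from 10.25 through 11.40 to 12.71 and YRF1-7 from 10.27 through 11.59 to 12.79. The segregant 29c was the highest for all 7 members, while 7b was the lowest for 4 and 20a for 3. The range of each member was 110% to 125% of the distance between the parents' means.

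The mean of the 7 log2 values, called the family level here, was 10.45 and 10.83 in the extracts of 59A and 12.74 and 12.94 in those of S288C. The segregants had a family level of 10.42 in 7b, 10.54 in 20a and 10.89 in 5c at the low end. At the high end it was 12.32 in 16a, 12.39 in 25a and 12.95 in 29c. From lowest to highest the family spanned 5.76-fold, with a median of 11.65 and an SD of 0.49. Of the 44 segregants 41 lay between the highest 59A array, at 10.87, and the lowest S288C array, at 12.66. Segregants 7b and 20a lay within the 59A arrays and 29c within those of S288C. The largest gap between any neighbours was 0.56, from 25a to 29c. With at least 6 segregants on each side the largest gap was 0.15, which is 5.76% of the range. Of the 5153 other features compared, 75 had such a gap of at least 20% of their range.

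**Figure D2:**
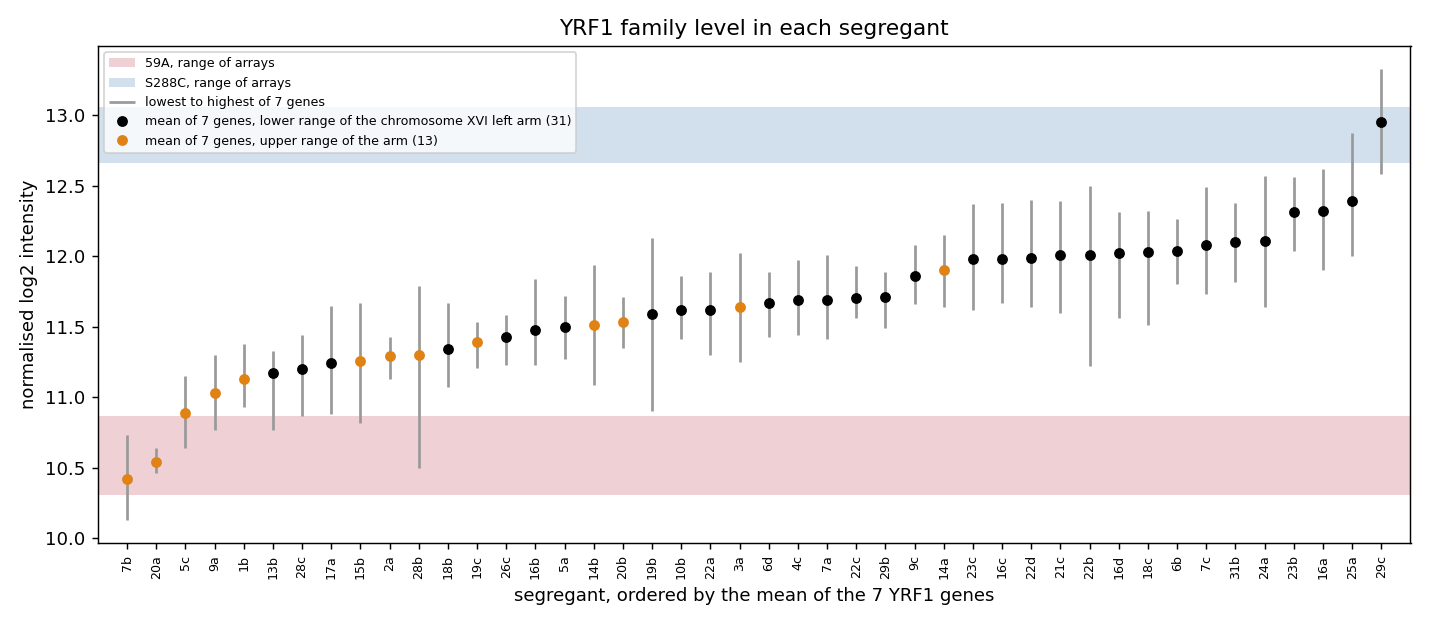
Mean log2 intensity of the 7 YRF1 genes (points, vertical axis) in each of the 44 segregants, ordered from lowest to highest (horizontal axis), with grey lines from the lowest to the highest of the 7 genes and shaded bands for the range of single arrays of each parent. The levels rise in small steps from 10.42 to 12.95, and the orange points, segregants in the upper range of genes on the left arm of chromosome XVI, sit mostly on the left, with the highest of them at 11.90.

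The average segregant lay near the midpoint of the parents. Segregants minus midpoint was between -0.15 and 0.00 for the 7 members, with standard errors of 0.23 to 0.29. In limma 0 of 7 members were called, also 0 at an unadjusted p under 0.05, with adjusted p of 0.998 and 0.999, while of all 5016 features 0.0797% were called above and 0.0598% below the midpoint, 0.140% either way. For YRF1-1 the fit allowed its missing value, and there 0.144% of 6245 features were called. The standard errors were larger than every one of these offsets. Between 17 and 22 of the 44 segregants lay above the midpoint, depending on the member. Only 1 segregant, 20a, lay below 59A by more than 2 SD of a single array, for YRF1-1 and YRF1-4, and 0 lay above S288C by as much.

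The share of the variance over segregants that exceeded the variance of single parental arrays, the study's formula for heritability, was 91.8% for YRF1-1, 88.3% for YRF1-4, 85.0% for YRF1-5 and 80.1% for YRF1-2. For YRF1-3 it was 73.1%, for YRF1-7 65.8% and for YRF1-6, the member with the most scattered arrays, 53.6%. The members' median of 80.1% lay below the median of 92.7% over 5016 features. Their SD over segregants, 0.46 to 0.57, was larger than that of 68.9% of the 5160 features with a value in every segregant, whose median SD was 0.35. YRF1 levels thus varied more than those of most features, while a smaller share of that variance exceeded the scatter of arrays.

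Spores of 1 ascus number differed about as widely as segregants at large, though some sets were close. The spores of ascus number 7 stood at 11.69 in 7a, 10.42 in 7b and 12.08 in 7c, a spread of 1.66, while 28b and 28c differed by 0.10 and 19b and 19c by 0.20. The labels of 7a and 7b are in doubt, as given with the chromosome XVI arm. Where all 4 spores were present, number 16 gave 12.32, 11.48, 11.98 and 12.02 for spores a to d, and number 22 gave 11.62, 12.01, 11.70 and 11.99. Within ascus numbers the SD was 0.48, close to the SD of 0.49 over all segregants. Slide means of the family level ran from 11.46 to 11.97, and each slide held segregants on either side of the median.

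The members moved together over the segregants. Over 44 segregants the 21 pairs of members had Pearson r of 0.81 to 0.98, with a median of 0.93, and after removal of slide means of 0.82 to 0.98. Pairs among YRF1-1, YRF1-4 and YRF1-5, which share the accession, had r of 0.95 to 0.98, and pairs among YRF1-2, YRF1-3, YRF1-6 and YRF1-7 had r of 0.90 to 0.98. The 12 pairs across these sets had r of 0.81 to 0.95. The values share arrays and cross-hybridising probes, so these correlations describe the signal and not separate loci.

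The mean of the accession-sharing members minus the mean of the others was 0.30 to 0.43 on the 59A arrays and 0.41 to 0.73 on the S288C arrays, in log2 units. In the segregants it ran from -0.27 in 13b to 0.90 in 19b, with a median of 0.39 and an SD of 0.22. Some segregants therefore lay outside both parents in this contrast. Segregant 22b changed place most between members, by 27 ranks among 44, against a median change of 8 ranks. Segregant 13b was one of the arrays with most missing values.

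Of the other open reading frames of Y' elements, 15 of 25 showed the parental difference of the helicase genes. Those on the array were 25 of 26 listed, YRF1-8 among them. In the parental limma fits the 15 were called lower in 59A and 0 higher, also 0 higher at an unadjusted p under 0.05, against 12.4% lower over all features. YRF1-8 was 5.09-fold lower in 59A (log2 difference -2.35, SE 0.19, limma adjusted p = 0.000337) and had a mean r of 0.92 with the 7 members over 43 segregants. YPR204W, at the right end of chromosome XVI, stood at 10.53 in 59A and 12.60 in S288C, and YHR219W, at the right end of chromosome VIII, at 10.79 and 13.05. YEL077C, at the left end of chromosome V, had the most negative difference in the list, -2.41 (SE 0.11, limma adjusted p = 6.10e-05).

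Likeness to the family was measured as the mean Pearson r with the 7 members over the 44 segregants. Over 5153 features it had a median of 0.01, and 5% and 95% of features lay below -0.47 and 0.47. The 10 features most like the family were all from the Y' list, led by YPR204W at 0.95, YHR219W at 0.94, YLL066C at 0.93, YML133C at 0.92 and YBL113C at 0.90. They were followed by YEL077C at 0.88, YIL177C at 0.85, YJL225C at 0.83, YLL067C at 0.81 and YHL050C at 0.79. The annotation places 9 of these 10 at the very end of a chromosome. Of the 12 features above 0.7, 11 were in the Y' list. The exception was YFL067W at 0.75, an uncharacterised open reading frame that is the second gene from the left end of chromosome VI. It lies on the telomere side of the Y' frame YFL066C, and whether its signal is shared with Y' transcripts was not tested. Its probe was dim, at 5.75 in 59A, 6.64 in S288C and 5.77 to 6.49 in the segregants, whose median of 6.07 lay below the background limit used here, log2 6.3, set above the scanner background of 5.3.

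The 11 listed Y' frames with the common accession had mean r from 0.59 to 0.94. The 14 without it split. YPR204W, YIL177C, YJL225C and YFL066C, with S288C levels between 8.74 and 12.60, had mean r of 0.70 to 0.95. The other 10, at 5.84 to 7.27 in S288C and 5.64 to 7.31 in 59A, had mean r of -0.20 to 0.33. None of these 10 was called between the parents, with differences of -0.65 to 0.05, but YLR464W (adjusted p = 0.00118), YPR202W (adjusted p = 0.00203) and YPR203W (adjusted p = 0.00741) in limma passed the p limit and missed the minimum difference. YLR464W, YEL076C and YPR202W lay below the background limit in both 59A extracts. YLR462W, at 7.31 in 59A and 7.27 in S288C, lay above it in both parents.

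**Figure D3:**
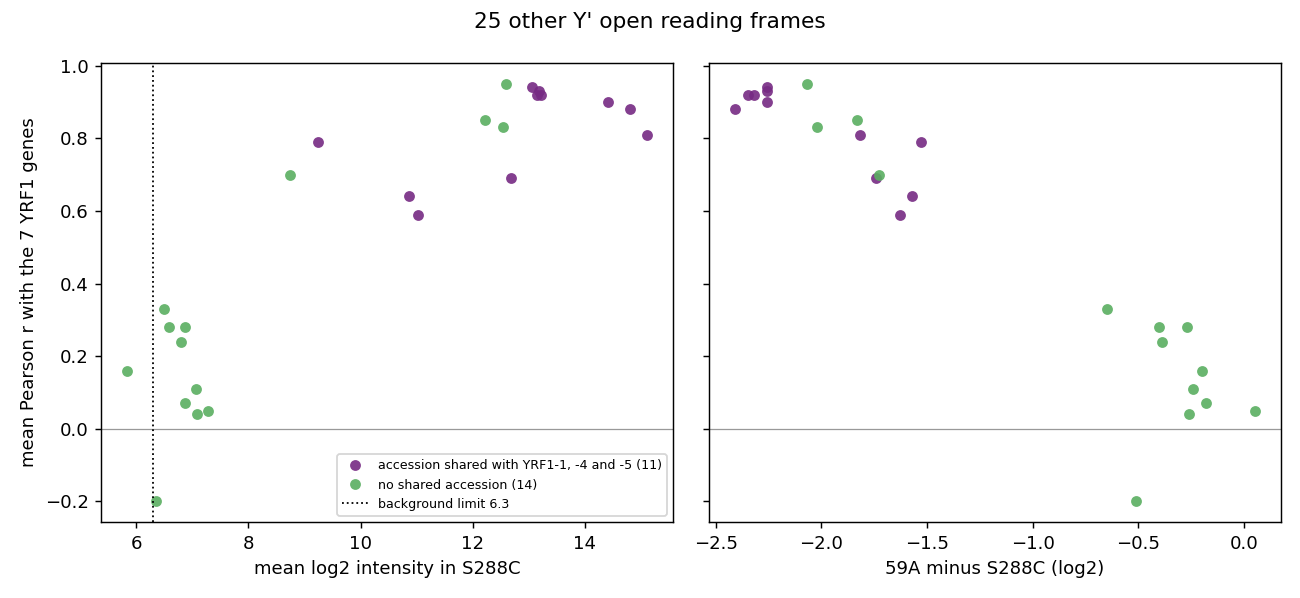
Mean Pearson r with the 7 YRF1 genes over the segregants (vertical axes) for the 25 other Y' open reading frames, against their mean log2 intensity in S288C (left) and the difference of 59A minus S288C in log2 units (right), coloured by the accession shared with YRF1-1, YRF1-4 and YRF1-5. The 10 frames at 7.27 or less in S288C have r of 0.33 or less and differences of -0.65 to 0.05, while the other 15 frames lie at 0.59 or more and at differences of -1.53 or beyond.

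Which other features went with the helicase level was tested by regression on YRF1-1 over the 44 segregants. The limma fit left out the other members and held 5153 features. Of these, 309 rose with YRF1-1 and 286 fell, 6.00% and 5.55%, at adjusted p under 0.01. Of the 21 Y' frames in that fit 13 rose, or 61.9%, and 0 fell. Among the 9 that carry the accession of YRF1-1, 9 rose, and of the 12 without it 4 rose. Probes of near copies can bind the same transcripts, so these rises and slopes cannot be told apart from shared probe signal. Their p-values do not stand for separate transcripts. The slope of YHR219W was 1.00 log2 unit per log2 unit of YRF1-1 (SE 0.02, adjusted p = 1.04e-34) and that of YML133C 1.02 (SE 0.04). YHL050C, dimmer, had a slope of 0.75 (SE 0.08), and YHR218W, the second gene from its end, 0.52. With slide as a block 170 features rose and 161 fell, and without segregant 20a, the lowest in YRF1-1, 159 rose and 147 fell, with the Y' frames at 13 both times.

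Genes on the left arm of chromosome XVI were among the calls outside the Y' list. The 59A parent carries a translocation between chromosomes VIII and XVI near the sulfite pump gene SSU1, and a cross with a standard strain can give spores with an extra copy of that arm. In the study's account such spores hold the translocated chromosome VIII and a standard chromosome XVI. It speaks of regions deleted as well as duplicated on these chromosomes. The left tip of chromosome VIII holds the Y' frame YHL050C, and whether such spores lacked that tip was not tested. Of the 169 genes on the array between the left end and SSU1, not counting YRF1-7, 132 were in the regression, and 42 of them (31.8%) fell with YRF1-1 while 0 rose. Between the parents 14 of 157 were lower in 59A and 17 higher, where 12.4% of all features were lower and 12.8% higher. The median shift of these genes, relative to each gene's median over segregants, fell into separate ranges, -0.28 to -0.05 in 31 segregants and 0.52 to 0.68 in 13. The study's DNA arrays gave the same counts, 13 segregants with the extra arm and 31 without. It also reported expression changes outside the arm, and helicase transcripts linked to the left tip of chromosome VIII, listed as a consequence of the extra arm. The labels do not name these segregants. Here the segregants were set apart by the expression signal alone, so no test was made between the sets. No correlation with the arm shift was pooled over them. The correlations and the regression over 44 segregants hold both sets.

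The family level ran from 11.17 to 12.95 in the 31 segregants and from 10.42 to 11.90 in the 13. The ranges overlapped, with the lowest 5 segregants, 7b, 20a, 5c, 9a and 1b, all in the upper arm range and the 15 highest in the lower one. Within the 31 the family level and the arm shift had r of -0.23, and within the 13 of 0.26. Within each range the members still moved together, with r between pairs of 0.72 to 0.97 in the 31 and 0.72 to 0.99 in the 13. YRF1-7 is annotated as the outermost gene of this very arm, and it too was lowest in the library labelled 7b, one of the 13. The study's own DNA example of a segregant with the extra arm is named 7a. In the expression values the arm shift was -0.20 in the library labelled 7a and 0.55 in that labelled 7b, so these labels may not match between the data sets, which was not tested.

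**Figure D4:**
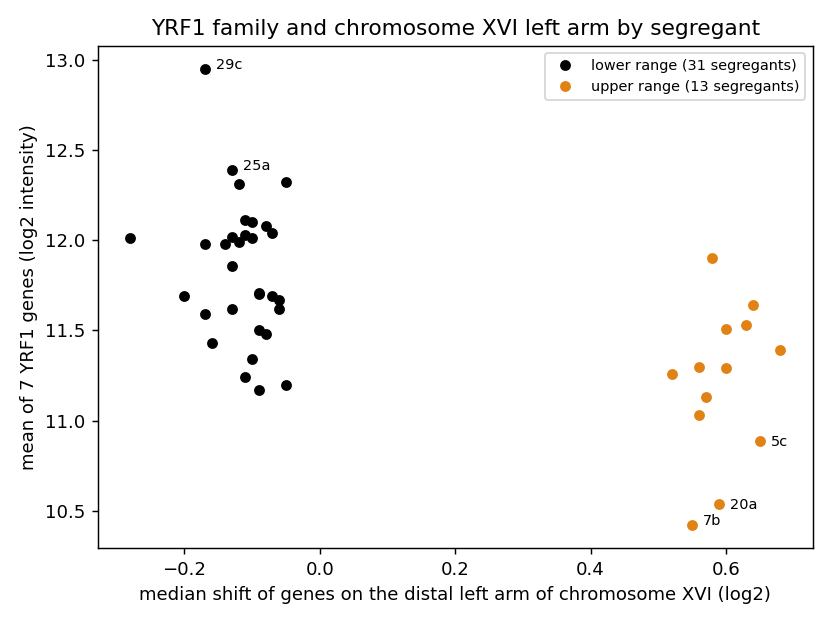
Mean log2 intensity of the 7 YRF1 genes (vertical axis) against the median log2 shift of genes on the distal left arm of chromosome XVI (horizontal axis) in each of the 44 segregants. The arm shift falls into separate ranges of 31 and 13 segregants, the family level spreads widely within both, and 7b, 20a and 5c, lowest in YRF1, are in the upper arm range.

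When the arm shift entered the regression as a second term, an alternative chosen after seeing the data, 16 features of 5153 were called, 15 higher and 1 lower. The Y' frames among them were 13, as before. The rest were YFL067W (slope 0.29, SE 0.04, adjusted p = 3.31e-06), a probe without a gene name, and RNH203, a subunit of ribonuclease H2, which fell with a slope of -0.39 (SE 0.08, adjusted p = 0.00612). Of the genes of the arm 0 of 132 were called, with 7 higher and 1 lower at an unadjusted p under 0.05. With the 31 segregants of the lower arm range alone, 19 features were called, of which 12 were Y' frames and 1 was YFL067W. That fit has less power, with fewer segregants and a family level SD of 0.39, against 0.49 over all 44. YHR219W kept a slope of 1.00 there and YPR204W one of 0.76.

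**Figure D5:**
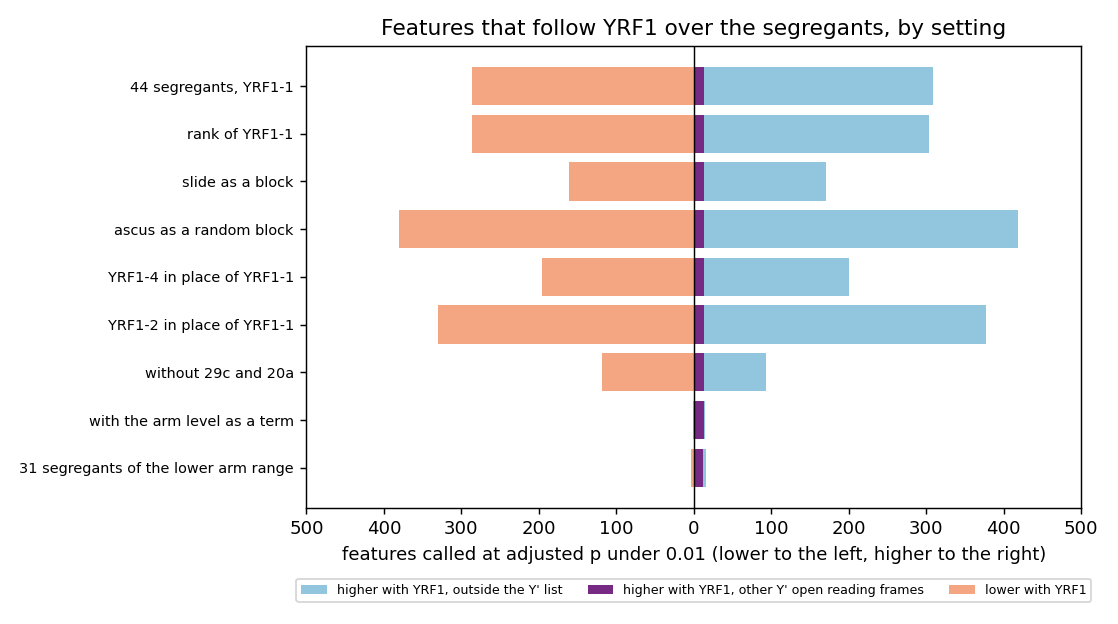
Number of features called at adjusted p under 0.01 (horizontal axis, those that fell with YRF1 to the left and those that rose to the right) for the regression on YRF1-1 and 8 alternative settings (vertical axis). The Y' frames, in purple, stay at 13 in the settings with all 44 segregants, at 13 without 29c and 20a and at 12 in the 31 segregants, while all calls together go from 595 to 16 once the arm level is a term.

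The genes outside the Y' list most like the family lost their calls with the arm term, YFL067W excepted, while some kept their slope in the 31 segregants. AAD10, an aryl-alcohol dehydrogenase, had a mean r of 0.66 and a slope of 1.42 (SE 0.23, adjusted p = 6.69e-05), which became 0.93 with the arm term (adjusted p = 0.0779). BGL2, a glucanosyltransferase of the cell wall, had a mean r of 0.63 over 44 segregants and 0.56 over the 31, with an adjusted p of 0.162 with the arm term. Its slope of 0.83 was 0.66 in the 31 segregants (adjusted p = 0.0202). For FLC2, a putative flavin adenine dinucleotide transporter, r was 0.61 and 0.52, and its slope of 0.86 was 0.98 in the 31 (adjusted p = 0.0293). PCA1, a cadmium exporter, had slopes of 0.62 and 0.68 (adjusted p = 0.0407 in the 31). For SLX4, a scaffold of structure-specific endonucleases, r was 0.60 and 0.25 and the slope 0.31 and 0.14. YFL067W alone of the 10 leading named genes outside the list, picked after their values were seen, was called in both settings. Shared probe signal with the Y' frames was not tested for it.

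At the other end, the lowest mean r values were those of RAX1, which acts in bud site selection, at -0.67, the prefoldin subunit gene YKE2 at -0.64, PRO3 of proline synthesis at -0.64 and the beta-tubulin gene TUB2 at -0.64. VPH1 of the vacuolar ATPase, GET4, SHE3, COG1, EAP1 and CAF16 lay between -0.62 and -0.61. With the arm term 0 of these 10 were called in limma, with adjusted p of 0.0779 to 0.284, though 10 of 10 kept an unadjusted p under 0.05. The slope of RAX1 went from -0.26 to -0.19 and that of TUB2 from -0.58 to -0.32. In the 31 segregants alone RAX1 had a slope of -0.25 (adjusted p = 0.0389) and VPH1 one of -0.49 (adjusted p = 0.0202), against -0.59 in all 44. Outside the Y' list 1 feature lay above 0.7 and 0 below -0.7, and 22 lay above 0.6 and 17 below -0.6.

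Few genes that act at telomeres were called with YRF1-1. In the silencing and recombination lists, with 13 and 8 genes tested, 1 call each differs little from the share over all features, 6.00%. Of 13 telomere replication genes 9 were in the regression, and TEL1, a kinase that keeps telomeres long, rose with YRF1-1 (slope 0.28, SE 0.05, adjusted p = 0.000524), as did PIF1, a helicase that strips telomerase from ends (slope 0.43, SE 0.10, adjusted p = 0.00324). These are 22.2% of the 9, a share that rests on 2 genes, against 6.00% of all features. At an unadjusted p under 0.05, 5 of the 9 rose and 1 fell, where 978 of all 5153 features rose and 931 fell. The median mean r of the list was 0.39, against 0.01 over all features. Of 13 telomeric silencing genes tested 1 rose, the histone acetyltransferase gene SAS2 (slope 0.24, SE 0.07, adjusted p = 0.00819, 7.69% of the list). Of 8 homologous recombination genes 1 rose, the RecQ helicase gene SGS1 (slope 0.29, SE 0.08, adjusted p = 0.00998, 12.5% of the list). RAD59 of the same 8 went down with a larger slope, -0.91 (SE 0.27), and missed the limit (limma adjusted p = 0.0123). At an unadjusted p under 0.05, 3 of the 8 rose and 1 fell. With the arm term none of TEL1, PIF1, SAS2 and SGS1 was called. TEL1 kept its slope, 0.27 with the arm term (adjusted p = 0.0372) and 0.35 in the 31 segregants (adjusted p = 0.0255). The slope of PIF1 became 0.19, that of SAS2 0.12 and that of SGS1 0.13. PIF1, SAS2 and SGS1 then had adjusted p of 0.515, 0.552 and 0.614. Between the parents, where 12.4% of all features were lower and 12.8% higher, 5 of 15 silencing genes tested were lower in 59A and 1 higher, with SIR3, a structural protein of silent chromatin, at -1.12 (SE 0.07, limma adjusted p = 0.000124) and RAP1, the factor that binds telomere repeats, at -1.50 (SE 0.10, adjusted p = 0.000191). Of 12 replication genes 0 were lower (4 at an unadjusted p under 0.05) and 1 was higher, EST3, a telomerase subunit, at 0.98. PIF1 was higher in 59A, at 0.45 (SE 0.07, limma adjusted p = 0.00251), opposite to the helicases. TEL1 was lower, at -0.50 (SE 0.07, limma adjusted p = 0.00248), and both missed the minimum difference. Of 9 recombination genes 2 were called lower and 0 higher (7 lower and 1 higher at an unadjusted p under 0.05). Over all 5963 features, 1978 were lower and 1883 higher at that unadjusted limit.

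Other families of the chromosome ends gave no calls with YRF1-1. Of 7 COS genes, which encode membrane proteins of the subtelomeres, 0 rose and 0 fell in limma. Of 20 seripauperins, cell wall mannoproteins of anaerobic growth, also 0 rose and 0 fell, with 0 of either family at an unadjusted p under 0.05. Over all 5153 features 6.00% rose and 5.55% fell, and 978 rose and 931 fell at the unadjusted limit. With so few genes, 0 adjusted calls differ little from the shares over all features. Between the parents, where 12.4% of all features were lower in 59A and 12.8% higher, 4 of 9 COS genes were lower and 1 higher. In the same comparison 23 of 23 seripauperins were higher, with a median of 2.17, opposite to the helicases. Of 186 genes among the 10 nearest each chromosome end and outside the Y' list, 9 rose and 7 fell, 4.84% and 3.76%, below the shares over all features. At the left tip of chromosome VIII, moved by the translocation, 1 of 3 genes rose, the Y' frame YHL050C. The median slope of the seripauperins was -0.32, and it was -0.02 for the COS genes, 0.58 for the Y' frames and 0.01 over all features.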

How the data were processed

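Cy3-labelled cRNA from total RNA was read on Agilent arrays in one colour. The authors deposited normalised log2 values of the spot median intensity, quantile normalised over the whole set with R 2.13.1 and limma, and give 5.3 as background and 16 as saturation. The series matrix was used as deposited, and its 2076 missing values were not filled in. Scanner files and raw depth were not used here, and the number of arrays limits the precision. Probes were named through the platform annotation: 5197 had 1 gene name, of which 51 were updated and 2 kept as given, and 1048 had none. The array's genome build is not given in the sources used here, so no coordinates or sequences are printed.

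Arrays of 1 extract were averaged first. The comparison of the parents, that of segregants with the parental midpoint, and the regression on YRF1-1 were each fitted across all features with limma 3.58.1 in R 4.3.3 and adjusted by Benjamini-Hochberg. The parental limits, adjusted p under 0.01 and a log2 difference above 0.7, were those of the study. Correlations over segregants are descriptions. Named genes were all 7 members, the 10 features with the highest and the 10 with the lowest mean r, and from each gene list up to 4 with the smallest p on YRF1-1 and up to 2 between parents, with some of these given as counts only. The gene family and the lists were chosen with earlier results of these data known. Same-numbered extracts deviated together (r = 0.437), but nothing in the labels pairs them. The fits were first tested on simulated data. Alternatives were extract, slide and ascus terms, filters, scaling, other members as covariate and left-out samples.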

Additional observations from a re-analysis of the deposited data

How the results depend on the processing

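The difference between the parents kept its direction and call for YRF1-1 to YRF1-8 under every alternative run, with log2 values of -2.63 to -1.87 and adjusted p of at most 0.00122. The 6 members called lower became 7 where missing values were allowed or 59A replicate 2 was left out, and leaving out 1 extract gave 6 to 7 members and 15 to 16 Y' frames. Over all features, leaving out 1 extract gave 677 to 794 lower and 730 to 837 higher calls, and dropping the minimum difference gave 1346 lower and 1361 higher. The fit with a replicate block gave 6 members, 15 Y' frames, 758 lower and 770 higher features and kept each member's call. Against the midpoint 0 members were called in any setting. Over all features the 7 calls became 4 with each array as a sample and 4 to 5 without 1 parental extract. The members' median share of variance above array variance was 80.1% and stayed within 80.8% to 83.6% in the alternatives.

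The regression on YRF1-1 was far less stable outside the Y' list. Its 595 calls became 331 with slide as a block (170 higher, 161 lower) and 396 with YRF1-4 in its place (200 higher). They became 211 without 29c and 20a (93 higher, 118 lower) and 1285 at adjusted p under 0.05 (657 higher, 628 lower). Leaving out 1 segregant gave 306 to 784 calls, 159 to 389 higher and 147 to 395 lower, and the lowest count came without 20a. With the chromosome XVI arm level as a term 16 were called (15 higher, 1 lower), 15 of them among the 595, and in the 31 segregants of the lower arm range 19 were called (16 higher, 3 lower). Both were chosen after seeing the data. Rank, scaling, the background filter, ascus as a random block and each member other than YRF1-4 as covariate stayed within 1.5 times. The Y' frames that rose numbered 13 to 14 without 1 segregant and 12 to 15 in the other alternatives. Their probes can bind transcripts of YRF1 copies, so this steady count may describe shared signal. All 7 covariates called 231 features in common, 126 higher and 105 lower, 13 of them Y' frames. The cause of these changes was not tested. Each segregant has 1 array, and values near log2 6.3 limit what can be read of dim probes such as that of YFL067W.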

Other observations

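Segregants 14a and 26c each had 1 chromosome whose genes were shifted as a whole. The median shift was 0.73 on the log2 scale for chromosome VIII in 14a and 0.39 for chromosome XI in 26c. The study's DNA arrays showed no chromosomal change apart from the extra chromosome XVI arm. What underlies these shifts was not tested. Chromosome VIII ends on the right with the Y' frame YHR219W. The YRF1 family level was 11.90 in 14a and 11.43 in 26c, both within the middle of the order. Of the 13 segregants in the upper arm range, 14a was the highest.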
